A study of Mus musculus with 2 samples.

Results

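A set of 37 genes that mark blood cells, sorted by lineage, was followed in freshly isolated muscle stem cells (MuSCs), the cells marked by Pax7 that rebuild muscle fibres after injury. The genes were chosen by symbol: 5 that leukocytes share, 13 of macrophages and other myeloid cells, 4 of neutrophils, 4 of mast cells, 5 of T cells, 3 of natural killer (NK) cells and 3 of B cells. Of the 37, 36 had rows in a deposited count table of 24532 gene IDs, and Trbc2, a T cell receptor constant segment, had none. There were 2 RNA-seq libraries, both from male mice of the C57BL/6 strain, 1 labelled WT and 1 labelled dKO. In dKO, Pax7-CreER (a Cre recombinase driven by Pax7 and switched on by tamoxifen) is combined with a conditional allele and with Esr2-/-, which removes estrogen receptor beta. The labels give the same tamoxifen protocol for both libraries, an oral dose of 20 mg/mL on 5 days from 3 months of age. Both sample titles carry the tag 6M, which the labels do not spell out, and the number of mice behind each library is not given. Cre under Pax7 control is meant to act in stem cells and not in blood cells, whereas Esr2-/- as written is not tied to a cell type. Sorting kept Vcam1-positive cells that lacked Sca1 and the lineage proteins CD31 and CD45, so it was set to leave leukocytes out. From which cells the reads of these genes came was not tested.

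Leukocytes carry CD45, the tyrosine phosphatase encoded by Ptprc, on their surface, and so a CD45-negative gate should hold few of them. Resting skeletal muscle holds resident macrophages between its fibres, with fewer mast cells and lymphocytes, and neutrophils enter from blood mainly after injury. Many of the genes followed here are switched on in myeloid cells by the transcription factor PU.1, which binds sites with a GGAA core. In RNA of a sorted population, fewer cells of a type and less RNA per cell cannot be told apart.

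Start-site regions of 5 members are shown because they span the range of results, from genes much lower in the dKO library (Cd53, C1qb, Itgam), through a neutrophil gene with 0 reads there (S100a8), to the gene that was close in level (Cd79a). Each is the 250 bases before the transcription start from RefSeq on GRCm38.p6, the assembly that mm10 names, written 5′ to 3′ on the gene's strand. They lie at chr3:106790150-106790399 (Cd53, minus strand), chr4:136886201-136886450 (C1qb, minus), chr7:128062390-128062639 (Itgam, plus), chr3:90668821-90669070 (S100a8, plus) and chr7:24897247-24897496 (Cd79a, plus). Capitals mark GAGGAA, a PU.1-type motif, on either strand.
Cd53: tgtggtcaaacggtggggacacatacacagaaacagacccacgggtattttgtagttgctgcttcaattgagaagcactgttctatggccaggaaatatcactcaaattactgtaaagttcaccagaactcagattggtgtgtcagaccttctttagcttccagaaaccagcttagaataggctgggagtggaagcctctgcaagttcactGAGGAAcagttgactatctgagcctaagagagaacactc
C1qb: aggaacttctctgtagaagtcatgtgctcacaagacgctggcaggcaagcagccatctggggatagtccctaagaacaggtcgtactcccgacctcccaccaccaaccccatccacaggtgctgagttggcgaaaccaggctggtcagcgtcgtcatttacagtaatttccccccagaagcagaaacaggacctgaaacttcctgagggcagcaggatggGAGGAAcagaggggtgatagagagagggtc
Itgam: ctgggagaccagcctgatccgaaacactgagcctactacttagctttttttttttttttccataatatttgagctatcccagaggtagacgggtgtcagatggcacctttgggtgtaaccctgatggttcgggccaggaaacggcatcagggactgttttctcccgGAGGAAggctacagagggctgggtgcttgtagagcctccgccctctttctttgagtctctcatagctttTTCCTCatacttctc
S100a8: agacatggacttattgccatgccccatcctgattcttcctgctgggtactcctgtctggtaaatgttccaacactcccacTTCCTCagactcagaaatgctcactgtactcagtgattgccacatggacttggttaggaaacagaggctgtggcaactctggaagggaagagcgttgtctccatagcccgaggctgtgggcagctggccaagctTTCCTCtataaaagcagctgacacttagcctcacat
Cd79a: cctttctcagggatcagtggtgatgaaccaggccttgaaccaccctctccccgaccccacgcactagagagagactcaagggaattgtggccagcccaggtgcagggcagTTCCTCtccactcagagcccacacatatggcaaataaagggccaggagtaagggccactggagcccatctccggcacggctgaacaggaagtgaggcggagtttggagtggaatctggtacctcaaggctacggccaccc

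Each of the 5 windows shown holds the motif, Cd79a included, so these 5 cannot tell whether its presence goes with level. Windows of other lower genes held none, among them Fcer1g (19.7-fold lower), Cd163 (16.7-fold), Il1b (5.47-fold) and Lyz2 (2.42-fold). Promoter windows of 27 members were used (30 windows, since Coro1a, Kit and Ptprc have 2 each). Chromosome 18, where Csf1r lies, was left out of the member windows but kept among all windows. GAGGAA was found in 15 of the 30 member windows (50%) and in 23.3% of all 32851 windows of the same length. Of the 9 macrophage and myeloid windows 5 held it, and of the 4 neutrophil windows 2. It was also in 3 of 6 shared leukocyte, 2 of 5 mast cell, 2 of 3 T cell, 0 of 2 NK cell and 1 of 1 B cell windows. The motif was thus not particular to the myeloid windows. The 2 Kit windows overlap and hold the same match, which was counted in each. The C/EBP-type motif TTGCNNAA was found in 4 member windows (13.3%, against 9.56% of all), 2 of them neutrophil windows. The GATA-type motif, searched as AGATAA, was found in 4 (13.3% against 9.99%). The RUNX-type motif, searched as TGTGGTT, was also found in 4 (13.3% against 4.40%). Both strands were searched, no matches overlapped within the 5 windows shown, and a match is a stretch of letters, not a bound site. Spi1, the gene of PU.1 itself, was 6.50-fold lower (3.82 to 11.8), at 104 WT and 16 dKO reads. It was chosen after its value was seen.

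RNA of blood cell genes was scarce in both libraries and scarcer in the dKO library. Summed over the 36 genes, there were 9973 reads in WT and 2860 in dKO, which is 0.0272% and 0.00654% of the 36636680 and 43699831 reads assigned to transcripts. In CPM, counts per mega-read of scaled library size, this was 249 (95% Poisson interval 244 to 254) against 71.5 (68.9 to 74.1), 3.49-fold lower in dKO (3.35 to 3.64). All folds below are ratios of CPM, WT over dKO, and their 95% intervals are exact binomial ones that cover counting error only. With 1 library per group there is no replicate check and no test between genotypes, and every comparison is of these 2 libraries. Log2 ratios of dKO over WT were taken after adding 1 CPM, which pulls genes under a few CPM towards 0.

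Of the 36 genes, 24 had at least 10 reads in the higher library and are called measured, and 12 were not. All 24 measured members were below 0 on the log2 scale, beside 52.4% of all measured genes. By a rule of size, a log2 ratio of at least 1 either way, 19 of them were lower in dKO and 0 were higher. Over all 14885 measured genes the same rule called 4.30% lower and 1.92% higher. Among the 11520 genes whose reads in the higher library lay within the members' range of 14 to 3001, it called 5.02% lower. Their median log2 ratio was −1.73, and −1.86 with the genes at 0 reads in dKO set at their bound, beside −0.02 for all measured genes. On the fold without a pseudocount, an alternative added after seeing the data, 21 of 24 members had a whole interval above 2-fold, against 7.04% of all measured genes. The 3 that did not were Cd68, Cd4 and Cd79a. The plot of levels by gene shows both libraries side by side.

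**Figure D1:**
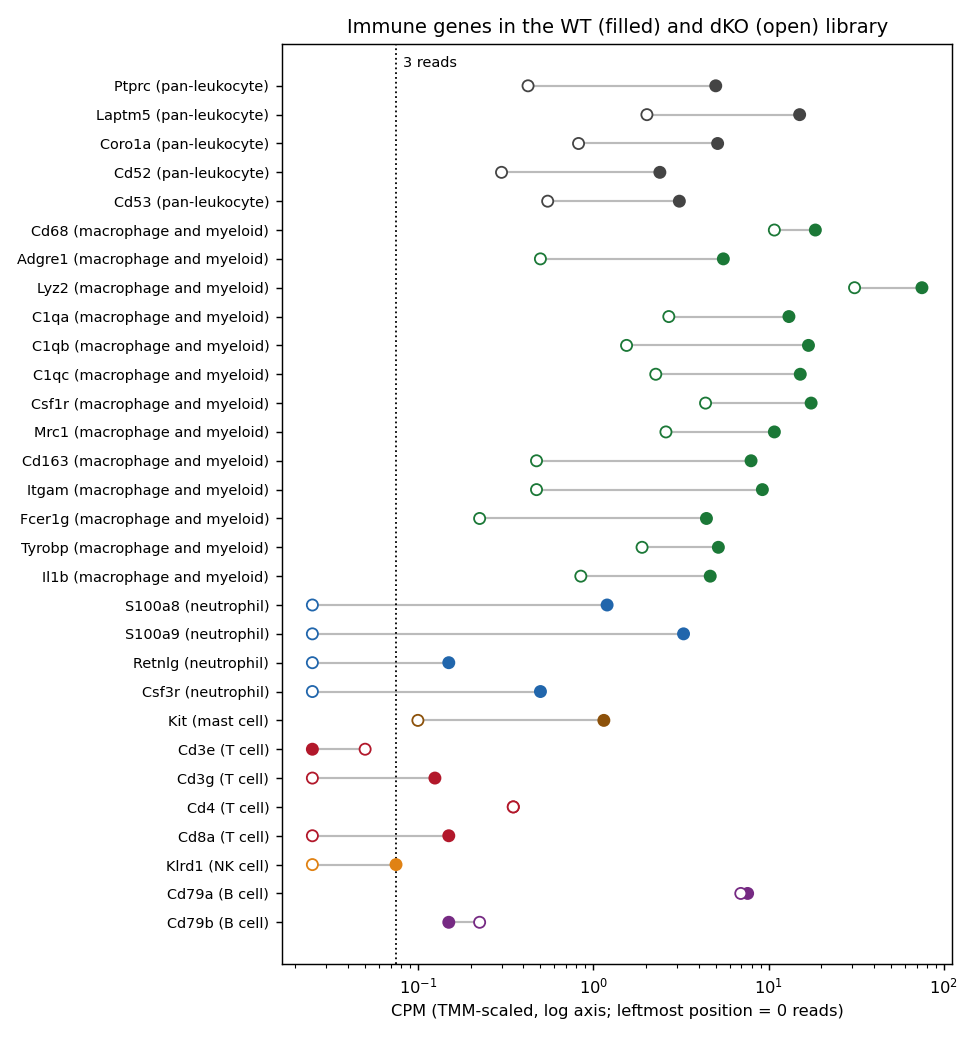
Level of each immune gene with at least 1 read, in CPM on a log axis, in the WT library (filled circles) and the dKO library (open circles), coloured by lineage; circles at the left edge stand for 0 reads and the dotted line for 3 reads. Macrophage and leukocyte genes sit lower in dKO, the 4 neutrophil genes reach 0 there, and Cd4 and Cd79a overlap.

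The 5 genes that leukocytes share were all lower by the 2-fold rule, with a median log2 ratio of −1.75. Ptprc, the gene of the sorted CD45 protein, was 11.8-fold lower (7.17 to 20.6), at 200 reads in WT (173 to 230) against 17 in dKO (9.90 to 27.2). Laptm5, a lysosomal membrane protein of blood cells, was the most abundant of the 5 in reads, with 602 in WT and 81 in dKO, 7.43-fold lower (5.89 to 9.50). Cd52, a small lipid-anchored surface glycoprotein, had 96 and 12 reads, 8.0-fold lower (4.38 to 16.0). The fold of Ptprc was 1.58 times that of Laptm5 (0.903 to 2.92) and 1.89 times that of Coro1a (0.987 to 3.74), and both intervals include 1 and reach well past 2-fold.

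Coro1a encodes coronin 1A, an actin regulator of leukocytes, and had 205 and 33 reads, 6.21-fold lower (4.29 to 9.27). Its rows did not move together. The row of 1659 bases held 205 reads in WT and 3 in dKO, and the row of 1746 bases held 0 in WT and 30 in dKO. For the tetraspanin Cd53, which has a single row, there were 124 and 22 reads, a 5.64-fold difference (3.56 to 9.32). Per length, which is given only for genes with a single row, Laptm5 stood at 6.28 CPM per kb in WT and 0.844 in dKO, above Cd52 (4.77 and 0.596) and Cd53 (1.11 and 0.196) in both libraries.

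Macrophage and myeloid genes made up most of the immune reads. All 13 were measured and below 0, and 12 were lower by the 2-fold rule, with a median log2 ratio of −1.93. Their summed level was 204 CPM in WT (199 to 208) and 59.7 in dKO (57.3 to 62.1), 3.42-fold lower (3.26 to 3.58). Single genes spread widely around that sum, from 1.71-fold for Cd68 to 19.7-fold for Fcer1g, as the plot of folds with intervals shows.

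**Figure D2:**
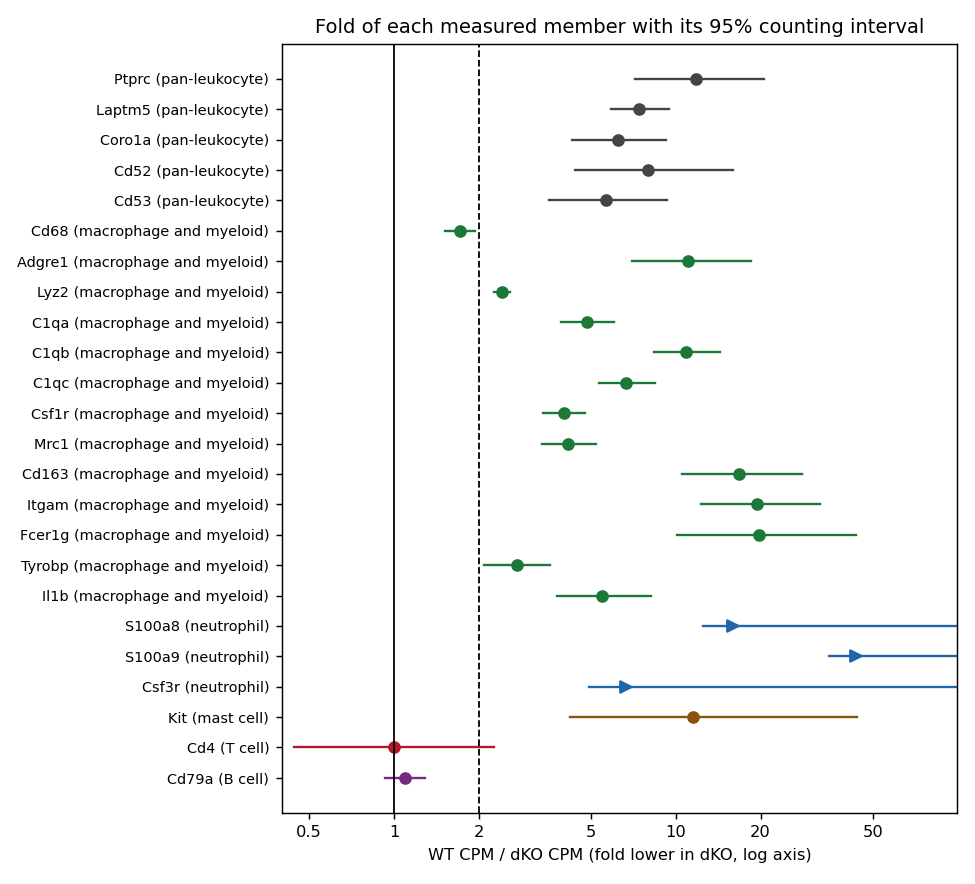
Fold of each of the 24 measured members, WT CPM over dKO CPM on a log axis, with its 95% counting interval; triangles are bounds against 3 reads for genes with 0 reads in dKO, the solid line marks 1 and the dashed line 2. Myeloid genes run from 1.71 (Cd68) to 19.7 (Fcer1g), and Cd4 and Cd79a lie at 1.0 and 1.09.

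The complement component C1q is made by tissue macrophages from 3 neighbouring genes on chromosome 4 (GRCm38), whose chains form a single protein. C1qa (136895916 to 136898844) had 523 reads in WT and 108 in dKO, 4.84-fold lower (3.93 to 6.02). C1qb (136880126 to 136886200) had 676 and 62, a difference of 10.9-fold (8.40 to 14.4). For C1qc (136889801 to 136892936) there were 607 and 91 reads, 6.67-fold lower (5.35 to 8.41). In WT the 3 genes were close per length, at 12.1, 15.9 and 14.4 CPM per kb for C1qa, C1qb and C1qc, and in dKO they were at 2.49, 1.46 and 2.16. The order of C1qa and C1qb was thus turned between the libraries, and the fold of C1qb was 2.25 times that of C1qa (1.60 to 3.19).

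The surface receptors among these genes were lower by 4.0-fold to 19.4-fold. Adgre1, which encodes the macrophage marker F4/80, was at 221 WT and 20 dKO reads, 11.1-fold lower (6.99 to 18.5). Cd163, the haemoglobin scavenger receptor, had 318 and 19, a 16.7-fold difference (10.5 to 28.2). Its longer row, of 4492 bases, again ran the other way, with 1 read in WT and 19 in dKO, while the row of 4409 bases had 317 and 0. Itgam, the CD11b integrin chain, had 369 and 19 reads and was 19.4-fold lower (12.3 to 32.6), and both of its rows were lower, at 220 and 0 and at 149 and 19.

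Mrc1, the mannose receptor CD206 of resident macrophages, had 432 and 104 reads, 4.16-fold lower (3.35 to 5.20). That fold was 0.249 times the fold of Cd163 (0.141 to 0.418), so these markers of resident macrophages were not lower to the same degree. Csf1r, the receptor for the growth factors CSF1 and IL-34 on which macrophages depend, had 700 and 175 reads, 4.0-fold lower (3.39 to 4.75). In the GENCODE annotation its exons share 873 bases with those of Hmgxb3 on the opposite strand, a gene with 2199 and 2565 reads. In RefSeq coordinates these genes do not overlap, with Csf1r ending at 61131139 and Hmgxb3 starting at 61131277. Which annotation and strand setting the counts used is not given. The part of such overlap in the Csf1r value was not tested. The fold of Itgam was 4.85 times that of Csf1r (2.95 to 8.39).

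Fcer1g and Tyrobp encode short adaptor proteins that carry activating signals from Fc and other receptors. They stood at 6.72 and 9.14 CPM per kb in WT. Fcer1g had the lowest read number of the 13 genes in dKO, 9 against 177 in WT, 19.7-fold lower (10.1 to 43.7). Tyrobp had 207 and 76 reads and was 2.72-fold lower (2.09 to 3.59), so that the folds of these adaptors differed 7.20 times (3.47 to 16.8).

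Lysosomal and secreted products made up the other end of the range. Lyz2, lysozyme of myeloid cells, was the most abundant member at 3001 reads in WT and 1239 in dKO, 2.42-fold lower (2.27 to 2.59), and held 30.1% of all member reads in WT. A near-identical copy, Lyz1, had 171 and 51 reads, and reads may have been divided between them. The endosomal glycoprotein Cd68 had 740 and 432 reads, 1.71-fold lower (1.52 to 1.93), and with a log2 ratio of −0.73 it was the only myeloid member inside 2-fold. The fold of Adgre1 was 6.44 times that of Cd68 (4.0 to 10.9) and 4.56 times that of Lyz2 (2.87 to 7.65). Il1b, the inflammatory cytokine interleukin-1 beta, had 186 and 34 reads, 5.47-fold lower (3.78 to 8.14), and lay inside the range of the macrophage genes. Without Lyz2, the summed myeloid reads were 4.49-fold lower, against 3.42-fold with it.

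All 4 neutrophil genes had reads in WT and 0 reads in dKO. S100a9 had 131 (110 to 155) and S100a8 48 (35.4 to 63.6) in WT. They encode the subunits of calprotectin, the main cytosolic protein of neutrophils. Csf3r, the receptor for the granulocyte growth factor G-CSF, had 20 reads over 3 rows, and the resistin-like gene Retnlg had 6. Against a floor of 3 reads in dKO, S100a9 was at least 43.7-fold, S100a8 at least 16.0-fold and Csf3r at least 6.67-fold lower. Here and below, "at least" takes the WT count as exact. The exact intervals, which also cover its counting error, started lower, at 35.0-fold, 12.5-fold and 4.94-fold. A count of 0 allows up to 0.0750 CPM in dKO. By log2 ratio with the added 1 CPM, S100a9 (−2.10) and S100a8 (−1.14) passed the 2-fold rule and Csf3r (−0.58) did not.

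Taken as a sum, the neutrophil genes had 205 reads in WT, 5.12 CPM (4.45 to 5.88), and were at least 68.4-fold lower against the floor of 3 reads. The exact counting interval, a separate and wider measure, started at 55.1-fold. Relative to the macrophage genes the exact interval of the ratio of folds started at 16.1, and relative to the shared leukocyte genes at 7.31. S100a9 supplied 63.9% of these reads, and without it the bound was 24.7-fold. A further list of 15 neutrophil genes kept reads in dKO, most of them on Mmp9 and Lcn2. Its sum was 435 reads in WT and 124 in dKO, 3.51-fold lower (2.87 to 4.32), near the macrophage fold of 3.42. Of these genes 7 were measured, all below 0, and 2 were lower by the 2-fold rule. One was Il1r2, the decoy receptor for interleukin-1 (58 and 0 reads, at least 19.3-fold, exact interval from 15.2). The other was Lcn2, an iron-binding lipocalin that other cells make as well (163 and 48 reads, 3.40-fold lower, 2.45 to 4.79). Clec4d (36 and 0 reads), Clec4e (22 and 0) and Cxcr2 (10 and 0) also had 0 reads in dKO. On the fold without a pseudocount, 6 of the 7 measured genes had a whole interval above 2-fold lower, against 7.04% of all measured genes. Mmp9, a matrix protease, was the exception, with 78 and 52 reads, 1.5-fold lower (1.04 to 2.17). The granule protease gene Prtn3 had 6 and 9 reads. Other granule genes of neutrophil precursors were hardly seen in either library: Mpo, Ltf, Camp and Ngp had 0 reads in both, and Ly6g, the common neutrophil surface marker, also had 0.

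Little RNA of mast cell, T cell and NK cell genes was seen. B cell genes had 310 and 287 reads, with 98.1% of the WT reads from Cd79a. Kit, the stem cell factor receptor of mast cells and blood progenitors, had 46 reads in WT and 4 in dKO, 11.5-fold lower (4.20 to 44.0), a fold 0.978 times that of Ptprc (0.299 to 4.18). Its log2 ratio of −0.97 was just inside the 2-fold line. The mast cell proteases Cpa3, Mcpt4 and Cma1 had 0 reads in both libraries, which allows up to 0.0750 CPM in each. Of a further 10 mast cell genes, the tryptases Tpsb2 and Tpsab1 and the IgE receptor chains Fcer1a and Ms4a2 were also at 0 in both. The reads of Kit came with none of the proteases that define mast cells.

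T cell genes were near the floor. Cd4, the co-receptor of helper T cells that some myeloid cells also carry, had 14 reads in each library (7.65 to 23.5), a fold of 1.0 (0.442 to 2.26). Its log2 ratio was −0.00013 and took the opposite sign with median-ratio scaling (0.0020), so no direction was read. The CD3 chains Cd3e and Cd3g had 0 and 2 and 5 and 0 reads in WT and dKO, and Cd8a, of cytotoxic T cells, had 6 and 0. Summed, the T cell genes had 25 and 16 reads, 1.56-fold lower with an interval of 0.802 to 3.13. Cd4 supplied 14 of these in each library, and without it the sum was 11 and 2 reads, 5.50-fold lower (1.2 to 51.1). Of the NK cell genes, the granule genes Nkg7 and Gzma had 0 reads in both libraries and the receptor gene Klrd1 had 3 in WT and 0 in dKO. With so few reads, the size of any difference in T or NK cell genes was poorly bounded.

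Cd79a, which encodes a signalling chain of the B cell receptor, was close in level in both libraries. There were 304 WT reads (271 to 340) against 278 dKO reads (246 to 313), that is 7.60 and 6.95 CPM, and a fold of 1.09 (0.927 to 1.29) that was 0.0932 times the fold of Ptprc (0.0518 to 0.158). Per length it stood at 5.73 CPM per kb in WT and 5.23 in dKO, above Cd52 and Cd53 in both. The other B cell members did not come with it. Its partner chain Cd79b had 6 and 9 reads, Ms4a1, the gene of CD20, had 0 and 0, and in a further list Pax5, Fcer2a, Cr2 and Pou2af1 had 0 in both. Of that list 2 of 14 genes were measured, Cd22 with 20 and 6 reads and Jchain with 3 and 15. Cd79a (Entrez ID 12518, protein-coding) lies on chromosome 7 from 24897497 to 24901858, next to Arhgef1, a gene of many cell types with 6963 and 7194 reads. From which cells or neighbouring transcripts its reads came was not tested.

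Lineages were then compared by the ratio of their folds (10 comparisons of lists and 12 of genes, chosen after the values were seen, with intervals not adjusted for their number). The fold of the shared leukocyte genes was 2.18 times that of the macrophage genes (1.84 to 2.59), and Kit's was 3.37 times (1.23 to 12.9). Both ratios lean on Lyz2, which held 36.8% of the macrophage reads in WT. Without it the macrophage fold was 4.49, against 7.44 for the shared leukocyte genes. By median log2 ratio the order was the other way, at −1.75 for shared leukocyte and −1.93 for macrophage genes. T cell genes had 0.457 times the macrophage fold (0.234 to 0.919), but without Cd4 the value was 1.61 times (0.351 to 15.0), so this order rested on Cd4. B cell genes had 0.316 times the macrophage fold (0.267 to 0.375), a value set by Cd79a, which held 98.1% of the B cell reads. As shares of all member reads, macrophage genes took 81.8% in WT (exact binomial interval 81.0 to 82.5) and 83.5% in dKO (82.1 to 84.8). Shared leukocyte genes took 12.3% (11.7 to 13) in WT and 5.77% (4.94 to 6.69) in dKO, and neutrophil genes 2.06% (1.79 to 2.35) and 0 of 2860 reads, which allows up to 0.105% by the floor of 3 reads and 0.129% by the exact interval. The B cell share was 3.11% in WT (2.78 to 3.47) and 10.0% in dKO (8.96 to 11.2). The plot of read shares shows that macrophage genes led in both libraries.

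**Figure D3:**
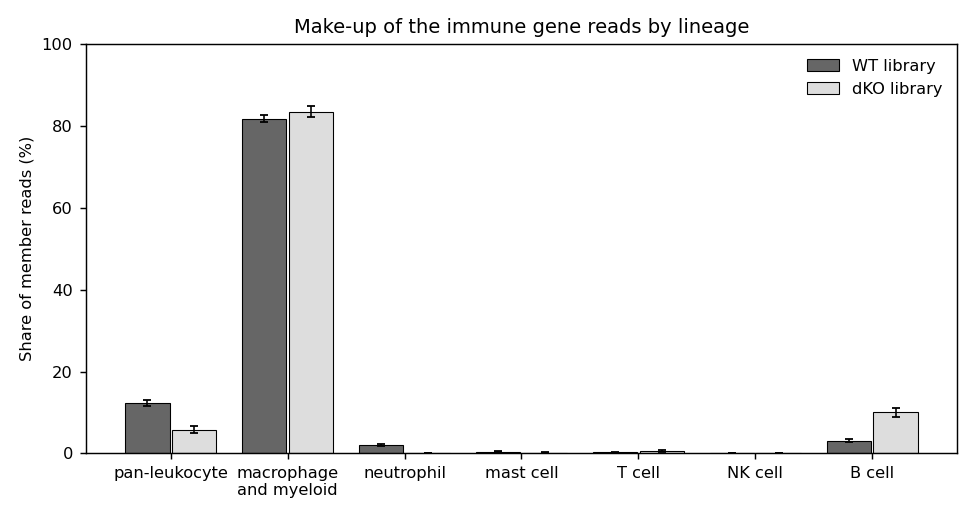
Share of all member reads (%) taken by each lineage in the WT (dark bars) and dKO (light bars) library, with exact 95% binomial intervals. Macrophage genes hold 81.8% and 83.5%, the shared leukocyte share is lower in dKO (5.77% against 12.3%) and the B cell share higher (10.0% against 3.11%).

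Further immune genes, in 10 lists of 152 genes beside the members, were mostly lower as well, except for lymphocyte genes. Of 88 measured genes 80 were below 0, 32 were lower by the 2-fold rule and 0 higher, with a median log2 ratio of −0.83. Over all measured genes 52.4% were below 0, 4.30% were lower by the rule and 1.92% higher. These shares stand beside the list counts that follow. Antigen presentation by MHC class II, the task of macrophages, dendritic cells and B cells, was represented by abundant genes. The invariant chain gene Cd74 had 2886 reads in WT and 864 in dKO, 3.34-fold lower (3.10 to 3.61). H2-Aa (1088 and 223 reads) was 4.88-fold, H2-Ab1 (1169 and 260) 4.50-fold and H2-Eb1 (1144 and 287) 3.99-fold lower. Clec9a, a marker of cross-presenting dendritic cells, had 19 and 0 reads, and Zbtb46, a factor of dendritic and endothelial cells, ran the other way with 384 and 623.

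Resident macrophage genes had 13 of 23 measured members lower by the 2-fold rule and 0 higher. F13a1, the coagulation factor XIII A chain made by resident macrophages, had 604 reads in WT and 9 in dKO, 67.1-fold lower (35.1 to 148). Lyve1, a hyaluronan receptor of resident macrophages and lymphatic vessels, was 8.18-fold lower (6.19 to 11), the Fc receptor gene Fcgr3 9.23-fold (6.19 to 14.3) and the scavenger receptor gene Stab1 4.41-fold (3.78 to 5.17). The inhibitory Fc receptor gene Fcgr2b was close in level, at 671 and 678 reads. The summed fold of that list, 2.10 (2.03 to 2.17), was 0.614 times that of the 13 members (0.580 to 0.650).

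Leukocyte signalling genes had 12 of 25 measured members lower by the 2-fold rule, 0 higher and 25 below 0. Lcp1, the actin bundler L-plastin, had 504 and 74 reads, 6.81-fold lower (5.33 to 8.82). Itgb2, the integrin chain that pairs with the Itgam product, had 457 and 82, 5.58-fold lower (4.40 to 7.14). Dock2, a Rac activator of leukocytes, was 10.0-fold lower (6.23 to 17.0). The adaptor gene Lcp2 had 102 and 0 reads, at least 34.0-fold lower (exact interval from 27.2). Among monocyte genes 1 of 8 was lower by the rule, Ly6c2 (124 and 32 reads, 3.88-fold, 2.61 to 5.91). The mast cell list and the eosinophil and basophil list had 2 measured genes each, with 0 past the rule. In each list 1 gene had its whole fold interval above 2-fold.

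The further lymphocyte lists were mixed in direction. Of 6 measured T cell genes 3 were above 0 and 3 below, of 3 NK cell genes 1 was above, and of 2 B cell genes 1. None passed the 2-fold rule, but all except Thy1, Tcf7 and Lck lay under 1 CPM in both libraries, where the added 1 CPM leaves the rule little room. On the fold without a pseudocount, 1 T cell gene had its whole interval above 2-fold lower and 2 had it above 2-fold higher, beside 7.04% and 2.90% of all measured genes. The lower one was Cd5, a surface receptor of T cells, with 18 and 0 reads (at least 6.00-fold, exact interval from 4.40). The higher ones were Cd247, the CD3 zeta chain, with 0 reads in WT and 12 in dKO, and Zap70, the kinase that binds it, with 0 and 10.

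Lck, another kinase of T cell receptor signalling, had 86 and 53 reads, 1.62-fold lower (1.14 to 2.33). The T cell list summed to 5353 and 7523 reads, higher in dKO, and Thy1, which many other cells make, supplied most of them, with 4809 and 7055. Without Thy1 the sum was 544 and 468 reads, 1.16-fold lower (1.03 to 1.32). The perforin gene Prf1 of cytotoxic and NK cells had 13 and 0 reads, at least 4.33-fold lower (exact interval from 3.05). Jchain, the joining chain of secreted antibodies, was 5.0-fold higher in dKO (1.41 to 26.9), and Cd22, a B cell inhibitory receptor, was 3.33-fold lower (1.29 to 10.1).

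Markers of other cells that the sort was set to leave out were in part lower too. Their counts stand beside 52.4% of all measured genes below 0 and 4.30% lower by the 2-fold rule. Of 15 endothelial markers all were below 0 and 12 lower by the 2-fold rule, with a median log2 ratio of −1.48, and their summed level was 892 CPM in WT and 393 in dKO, 2.27-fold lower (2.23 to 2.31). The fold of the immune members was 1.54 times the endothelial one (1.47 to 1.61). Without Tek, the endothelial gene with the most WT reads (1.19-fold lower), the endothelial sum was 2.74-fold lower (2.68 to 2.80). That is nearer the immune fold of 3.49, which was itself 4.30 without Lyz2. All 10 fibro-adipogenic progenitor markers were below 0 and 7 lower by the rule, with a median of −1.27. Their sum was 4445 CPM in WT and 3221 in dKO, of which Gsn, an actin-severing protein of many cells that was 1.14-fold lower, held 60.3% in WT. The immune fold was 2.53 times that of this sum (2.42 to 2.64), and 1.74 times without Gsn (1.66 to 1.81).

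Mural markers had 7 of 8 genes below 0, 2 of them lower by the rule, and a median of −0.50. Their sum was level, at 2540 CPM in WT and 2615 in dKO, through Notch3, which held 47.3% of the WT reads and was higher in dKO. Without Notch3 the sum was 1.53-fold lower (1.51 to 1.55). Tendon markers had 6 of 7 genes below 0 and a median of −0.71, and summed to 4553 and 2209 CPM. Myofibre markers had 7 of 9 below 0 and a median of −0.37, at 905 and 707 CPM. Glial markers had 5 of 7 above 0 and a median of 0.25, while their sum was 280 and 244 CPM. The sum of the 7 platelet genes ran the other way at 12.6 and 20.0 CPM, of which Itga2b held 92.3% of the WT reads. Only 2 of them were measured, and 3 had 0 reads in both libraries. Without Itga2b they summed to 0.975 and 5.35 CPM, mostly from Gp1bb (34 and 207 reads), while Ppbp was lower in dKO (5 and 0 reads). The part of these shifts in the immune values was not tested. The 12 muscle stem cell markers were split, 6 below 0 and 6 above, with a median of 0.11. They summed to 8609 CPM in WT and 11350 in dKO, of which Sdc4 held 34.6% of the WT reads. None of the 12 was at 0, so the labelled cell type was present in both libraries, with immune reads a small trace beside it.

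The genes of the sorted proteins, and Pax7, belong to the lists above and are part of their counts. Ptprc, Pecam1 and Ly6a were lower in dKO, whereas Vcam1 and Pax7 ran opposite ways. Pecam1 (CD31) had 4745 and 1673 reads, 2.84-fold lower (2.68 to 3.00), and Ly6a (Sca1) had 2316 and 386, 6.00-fold lower (5.39 to 6.70). Vcam1, the protein sorted for, had 23795 and 42383 reads and a log2 ratio of 0.83, and Pax7 had 22335 and 12620, with −0.82. Without a pseudocount Ptprc had a larger fold (11.8) than Ly6a, whereas on the log2 scale with 1 CPM added Ly6a lay further from 0 (−2.47) than Ptprc (−2.07).

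**Figure D4:**
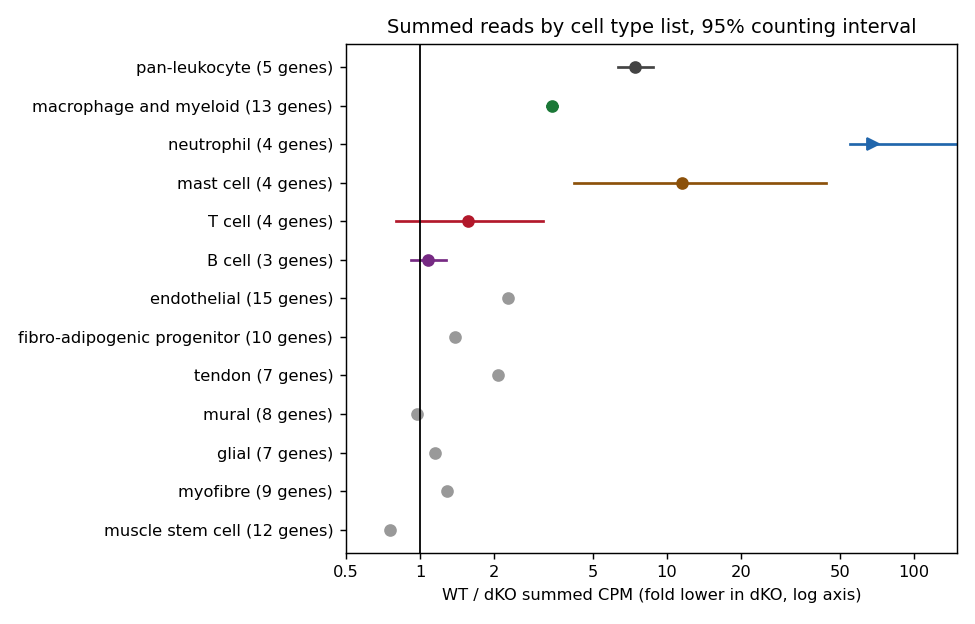
Fold of the summed reads of each cell type list, WT CPM over dKO CPM on a log axis, with 95% counting intervals (many narrower than the symbol) and the line at 1; the triangle is a bound against 3 reads. Neutrophil (at least 68.4), mast cell (11.5, from Kit alone) and shared leukocyte genes (7.44) lie furthest right, and stem cell and mural genes lie left of 1, the mural sum through Notch3, without which it lies at 1.53.

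Gene values were sums over transcript rows, and 10 of the 36 members had several rows. Among measured members, Coro1a and Cd163 had rows that ran in opposite directions, with the values given above. In the GENCODE annotation, exons of 6 members overlap those of another gene. Besides Csf1r these were Coro1a (26 bases with Bola2, 630 and 718 reads), Cd52 (172 bases with Crybg2, 0 and 0 reads), Il1b (25 bases with Il1bos, 0 and 4 reads), and Itgam and Cd3e, whose overlapping genes were not analysed here. In RefSeq coordinates Csf1r, Coro1a and Cd52 do not overlap the genes named for them. With the 6 left out, the summed fold of the other members was 3.26.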

How the data were processed

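RNA-seq reads of sorted muscle stem cells had been counted per transcript. The deposited table holds raw read counts, 1 row per transcript (36780 rows), with an Entrez gene ID and a length, per the file headers. TopHat2 2.0.9, bedtools, edgeR and mm10 are named in the submitters' processing notes with no role. Nothing in the sources used here gives the counting rule, the annotation or the use of strand. Groups came from the genotype labels. The gene behind the conditional allele is not reported here.

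Gene IDs were matched to RefSeq symbols on GRCm38.p6 (24462 of 24532), and a gene's rows were summed. Libraries of 36636680 (WT) and 43699831 (dKO) reads were scaled by TMM in edgeR 4.0.16 (R 4.3.3), with factors of 1.09 and 0.916. CPM, log2 ratios (1 CPM added), folds and exact 95% intervals (scipy 1.17.1) were computed from them. A count of 0 was set against 3 reads. Intervals and floors cover counting error only, because amplified reads are not independent molecules. Levels per length were given for genes with 1 row, since rows of a gene can share reads in unknown ways. Only the scaling and the 2-fold rule were tried on simulated data, drawn as Poisson counts. Intervals, floors, sums over rows and the motif search were not tested in this way.

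All 37 members were named. From each further immune list at most 4 genes were named, those 2-fold apart with at least 50 reads in the higher library, largest first. Others (Spi1, genes at or near 0, genes that were close in level or ran the other way, lymphocyte and further neutrophil genes, genes that dominate a sum, neighbours and the globins) were picked with their values in view. The members and lists were chosen with earlier results of these data known. Alternatives in scaling, pseudocount, row choice, count floor, size rule and membership were run.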

Additional observations from a re-analysis of the deposited data

How the results depend on the processing

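With 1 library per group, leaving out a replicate could not be done. No setting moved a measured member above 0 except median-ratio scaling, under which Cd4 became 0.0020, and 0 members were 2-fold higher under any setting run. The count of 19 lower members became 9 with 5 CPM added and 9 with a 4-fold rule, and stayed within 1.5 times of 19 otherwise. With 0.1 CPM added, the median log2 ratios were −2.61 (all members), −2.64 (shared leukocyte), −2.32 (macrophage) and −3.70 (neutrophil), and with 5 CPM they were −0.82, −0.80, −1.15 and −0.31. The pseudocount's own size sets these moves, since most members lay under 20 CPM. Among genes with at least 50 reads the neutrophil median was −2.10 (fewer genes). Under library totals alone the median of all measured genes was −0.24, a shift of −0.22, lower genes were 88.9% of those 2-fold apart against 69.1%, and the summed folds were 4.16 (all), 8.87 (shared leukocyte), 4.07 (macrophage) and 1.29 (B cell). The row with the highest mean share gave a shared leukocyte fold of 9.03. Without its most abundant member the fold was 4.30 (all), 4.49 (macrophage), at least 24.7 (neutrophil), 5.50 (T cell, from 11 and 2 reads) and 0.667 (B cell, from 6 and 9 reads, the opposite direction). With 1-row genes only the neutrophil bound was 18.0. Without members with exon overlaps, added after seeing the data, the folds were 3.26 (all) and 3.20 (macrophage). Without the gene with the most reads, also added after seeing the data, the summed folds of other lists turned direction for further T cell (0.712 to 1.16), NK cell (1.12 to 0.974), further B cell (1.52 to 0.800) and mural genes (0.971 to 1.53). Depth limits the T, NK, mast and B cell genes, of which 3 of 14 in the table were measured.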

Other observations

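Haemoglobin genes, the mark of red blood cells and not members of the set above, ran opposite to the leukocyte genes. Red cells lack CD45. Summed over 2 alpha and 4 beta globin genes there were 12744 reads in WT and 19960 in dKO, or 319 and 499 CPM, which is 1.57-fold higher in dKO (1.53 to 1.60). The alpha sum had a ratio of 1.60 (1.55 to 1.64) and the beta sum 1.53 (1.48 to 1.58).

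The copies that took these reads differed almost completely between the libraries. In WT the alpha globin reads fell on Hba-a2 (6865, against 76 on Hba-a1), and in dKO on Hba-a1 (11070, against 10 on Hba-a2). Of the beta globin genes, Hbb-b1 had 3888 reads in WT and 5 in dKO, Hbb-bs had 4 in WT and 6071 in dKO, and Hbb-b2 had 1911 and 2804. Hbb-bt had 0 in both. The alpha copies are near-identical, and Hbb-bs and Hbb-b1 are names of closely related beta globin genes of different inbred haplotypes, so the values of single copies are uncertain. Why the copies differ was not tested, and both libraries carry the same strain label.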
